A study of Macaca fascicularis with 32 samples.

Results

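The genes described here are 3 neuregulins, the secreted or membrane-bound ligands NRG1, NRG2 and NRG3, and 2 of their receptors, ERBB3 and ERBB4. They were chosen by their symbols, and all 5 were found among the 22316 annotated genes, of which 16297 carried a symbol. Nuclei of Macaca fascicularis brain came from the midbrain area where dopamine neurons lie (SN, substantia nigra) and from both parts of the dorsal striatum, the putamen (PUT) and the caudate (CN; the labels read "Caudal nucleus"). PD stands for animals modelling Parkinson's disease, which received an AAV (adeno-associated virus) and poly(ADP-ribose), and CT for their controls; the labels used here give no ages. The labels name 4 samples in each of SN PD, PUT PD, CN PD and SN CT, and 8 in PUT CT as well as in CN CT. The counts came as 6 matrices, 1 per region and treatment, with no map from nuclei to samples. Each matrix was counted as 1 library, so that no PD to CT difference has a replicate check and the treatment cannot be told apart from the animals or the library.

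Neuregulins carry an EGF-like domain that binds ERBB3 or ERBB4 on a neighbouring cell. ERBB4 has an active tyrosine kinase, whereas ERBB3 has little kinase activity of its own and signals after pairing with another receptor such as ERBB2. In rodents, NRG1 and ERBB4 are best known for the wiring of parvalbumin interneurons, ERBB3 for the oligodendrocyte and Schwann cell lineages, and NRG3 as a neuronal ligand of ERBB4. No sequence is shown.

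The libraries held 7702 to 10389 barcodes with totals of 18692617 to 36723856 UMIs (unique molecular identifiers, the counted transcripts), and pairs of libraries shared 14 to 38 barcodes. After filtering, 52728 of 56659 nuclei were retained, with a median of 1170 UMIs per nucleus in SN PD and 1245 in SN CT, 1959 in PUT PD and 2018.5 in PUT CT, and 2665 in CN PD and 3022 in CN CT. Nuclei were clustered without the 5 genes, and clusters were named from markers and are called "-like" for that reason. PDGFRA, the receptor that marks oligodendrocyte precursors, and TH, the enzyme that makes the dopamine precursor, are among these naming markers. Their levels describe the classes and are no separate check of the names. PDGFRA lay between 342 and 630 CPM (UMIs scaled to 1e6 per class and library) in oligodendrocyte precursor-like nuclei and between 1.86 and 6.52 CPM in oligodendrocyte-like nuclei. In dopaminergic neuron-like nuclei TH reached 53.1 CPM in the SN PD library and 54.3 CPM in the SN CT library. Levels below pool the UMIs of all nuclei of a class within 1 library, in CPM. They are compared within a gene, never between genes, because they are not corrected for length. All intervals are 95% and cover counting error only.

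Over all classes with at least 50 nuclei in a library, the 5 genes had different places of highest level. Cholinergic interneuron-like nuclei, at most 27 per library, fell below this minimum and are not ranked here. Their NRG1 was 4087 CPM in PUT PD (27 nuclei) and 3236 CPM in PUT CT (20 nuclei). NRG1 was highest in eccentric spiny projection neuron-like nuclei, a minor form of the striatal output neuron, at 4755 to 8292 CPM over 4 libraries. Oligodendrocyte precursor-like nuclei (2468 to 3721 CPM), indirect pathway spiny projection neuron-like nuclei (2466 to 3381 CPM) and direct pathway ones (2474 to 3050 CPM) followed, and their ranges overlapped. Dopaminergic neuron-like nuclei had 1773 CPM of NRG1 in SN PD and 1213 CPM in SN CT. Parvalbumin or PTHLH interneuron-like nuclei (86.4 to 173 CPM), astrocyte-like nuclei (91.9 to 284 CPM) and oligodendrocyte-like nuclei (67.6 to 395 CPM) had low levels of NRG1. They overlapped the range of microglia or macrophage-like nuclei (101 to 526 CPM). Whether NRG1 there came from these cells or from free RNA was not tested.

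NRG3 was spread over more classes. Its levels were 3695 to 5695 CPM in other neuron-like nuclei, 3848 to 4904 CPM in TAC3 interneuron-like nuclei, 3383 to 4490 CPM in astrocyte-like nuclei and 2789 to 3576 CPM in parvalbumin or PTHLH interneuron-like nuclei. Direct spiny projection neuron-like nuclei ran from 1194 to 3289 CPM, indirect ones from 887 to 2628 CPM and oligodendrocyte precursor-like nuclei from 1568 to 2386 CPM. Neighbours in this order overlapped. Microglia or macrophage-like nuclei (144 to 445 CPM) and oligodendrocyte-like nuclei (101 to 416 CPM) were lowest for NRG3. NRG2 stayed at or under 58.5 CPM in every class with at least 50 nuclei in a library.

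ERBB3 had the narrowest pattern. Oligodendrocyte-like nuclei had 181 to 221 CPM and oligodendrocyte precursor-like nuclei 62.2 to 97.8 CPM, with no overlap between the classes over 6 libraries each. Microglia or macrophage-like nuclei had 0 to 37.9 CPM (the 0, in CN CT, has an upper Poisson bound of 22.5 CPM), and astrocyte-like and spiny projection neuron-like nuclei 19.3 CPM or less. T or NK lymphocyte-like nuclei, present in SN PD with 122 nuclei, had 117 CPM of ERBB3 and 1045 CPM of ERBB4, in a class that is not known to use them.

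ERBB4 was highest in parvalbumin or PTHLH interneuron-like nuclei, at 12440 CPM in CN PD, 11953 CPM in CN CT and 9811 CPM in PUT CT. Eccentric spiny projection neuron-like nuclei had 5969 to 8907 CPM and overlapped neither these nor the direct (1005 to 2316 CPM) and indirect (289 to 574 CPM) spiny projection neuron-like nuclei. Astrocyte-like nuclei had 3040 to 6589 CPM, dopaminergic neuron-like nuclei 3822 CPM in SN PD and 3524 CPM in SN CT, oligodendrocyte precursor-like nuclei 2259 to 3087 CPM and oligodendrocyte-like nuclei 1008 to 3043 CPM. Microglia or macrophage-like nuclei had 289 to 434 CPM, and the indirect spiny projection neuron-like level was below that of the microglia-like nuclei of the same library in 3 of 4 libraries.

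**Figure D1:**
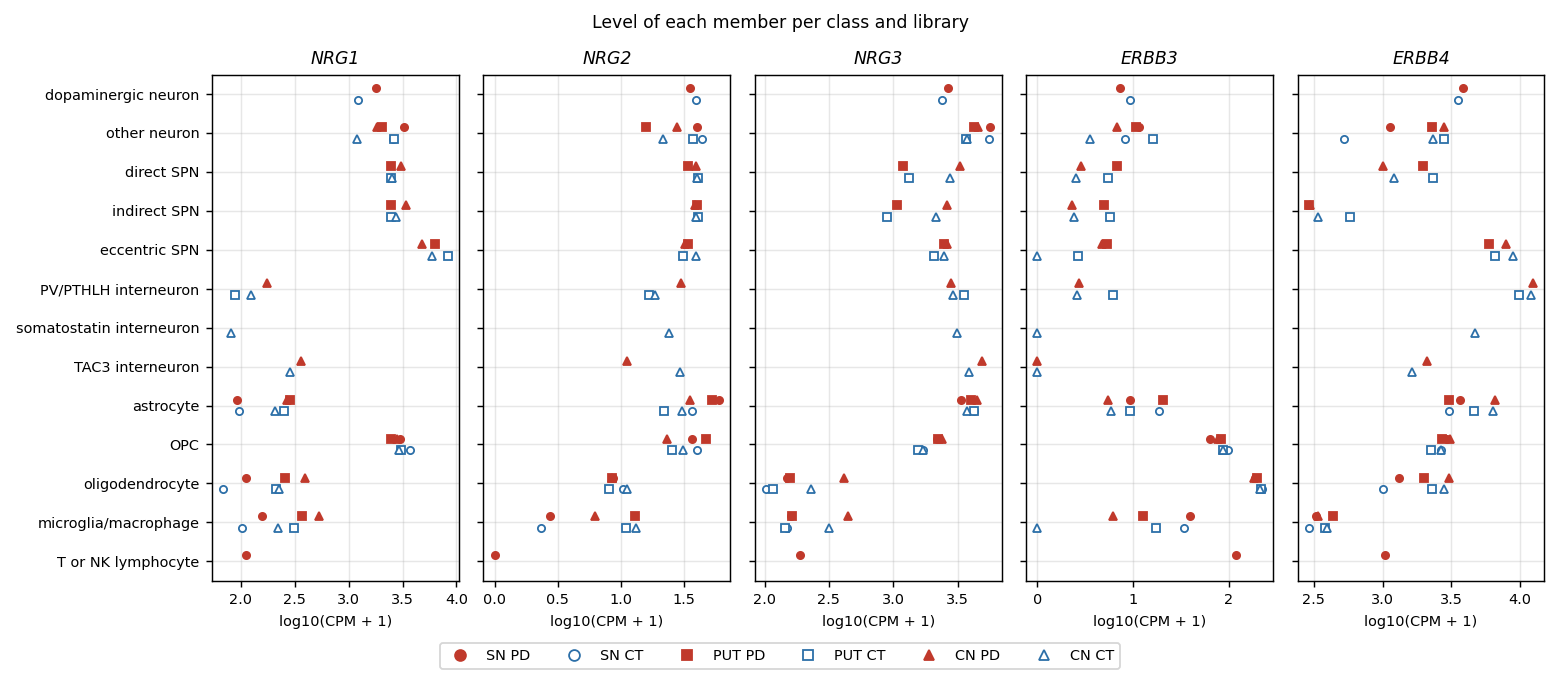
Level of each gene as log10(CPM + 1) on the horizontal axis, with 1 point per library in which a class had at least 50 nuclei. Point shape gives the region and colour the treatment, filled for PD and open for CT. ERBB4 peaks in parvalbumin or PTHLH interneuron-like nuclei (9811 to 12440 CPM), ERBB3 in oligodendrocyte-like nuclei (181 to 221 CPM) and NRG1 in eccentric spiny projection neuron-like nuclei (4755 to 8292 CPM).

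The genes whose profile over 51 class and library combinations was most like that of each member were found by Pearson's r of log2(CPM + 1) among 9578 genes. This is a description, since profiles of 1 library share its depth and its free RNA. For ERBB3 these were UGT8 (r = 0.94) and FA2H (0.92), enzymes of myelin lipid synthesis, BCAS1 (0.94), a gene of newly formed oligodendrocytes, SHROOM4 (0.94) and ABCA8 (0.91). For NRG3 they were RGS22 (0.92), GABRB1 (0.91), DENND5B (0.91), HMGB3 (0.91) and MAP2 (0.91). For NRG1 they were GSG1L (0.87), CACNA1I (0.86), GRM7 (0.85), GNAL (0.84) and SCN3A (0.82), and for NRG2 they were BCR (0.89), DZIP1 (0.88), CAP2 (0.85), NAV2 (0.85) and NLGN2 (0.85). ERBB4 had the weakest likeness, with MSRA (0.75), MAGI1 (0.71), LSAMP (0.71), MAPK10 (0.66) and PRSS55 (0.66). Among the members, r was 0.74 for NRG2 with NRG3, 0.40 for NRG1 with NRG3 and -0.57 for NRG3 with ERBB3.

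The first comparison asked how the PD library differed from the CT library of its region in each class with at least 100 nuclei in both. It covered 20 pairs of class and region, and a gene was counted as measured with at least 50 UMIs over the pair. Of 77 measured member values, 6 were at least 1.5-fold higher in PD, 3 were at least 1.5-fold lower and 68 were within that fold. Over the same 20 comparisons together, 5.99% of all genes measured were past the fold upward and 10.3% downward, so that the members' count lay near the background upward and below it downward. NRG1 was past the fold upward in 4 of 20 pairs, NRG3 in 1 of 20 and ERBB4 in 1 of 20. ERBB4 was past it downward in 2 of 20 pairs, ERBB3 in 1 of 8, and NRG2 in none of 9. The 2 folds of more than 2 were NRG1 in CN microglia or macrophage-like nuclei and ERBB4 in SN other neuron-like nuclei.

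**Figure D2:**
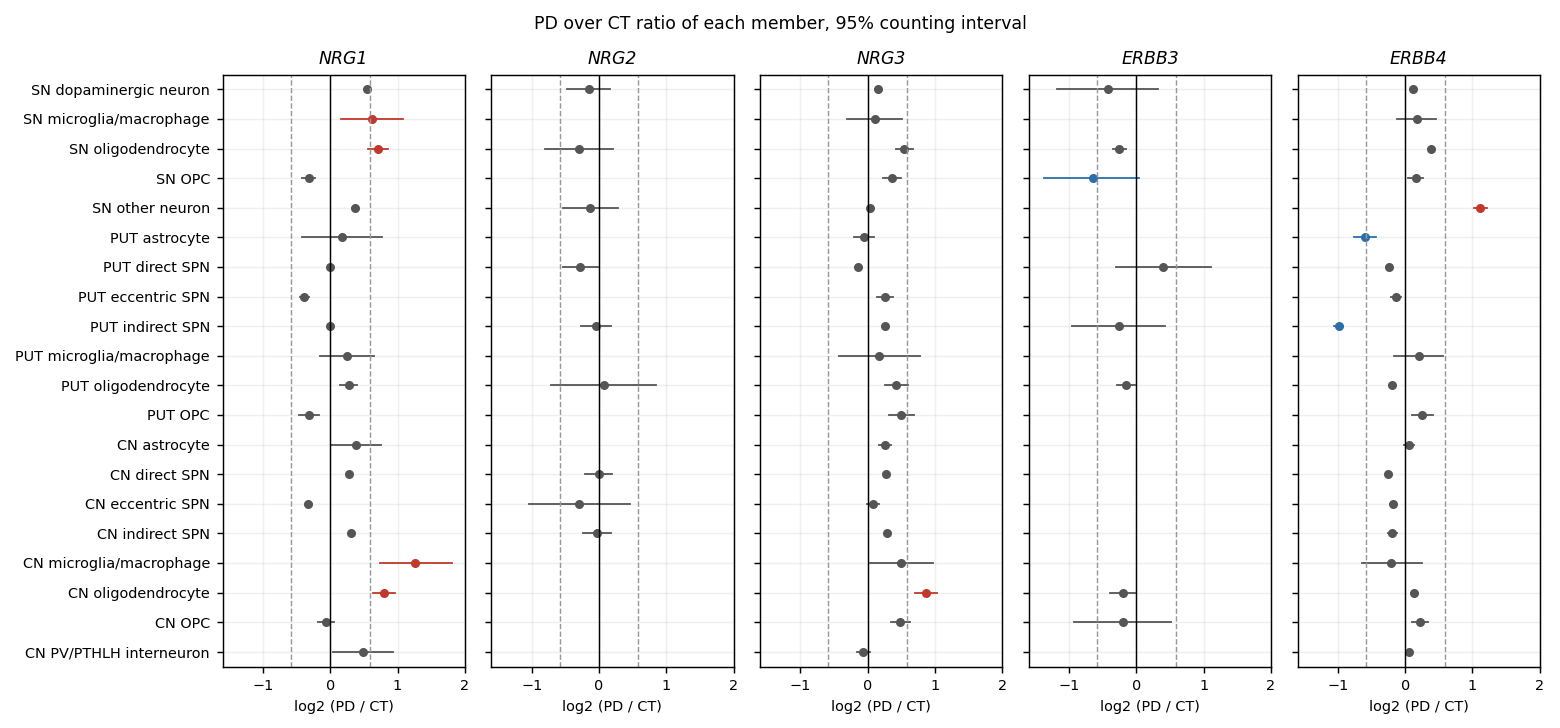
PD over CT ratio of each measured gene on a log2 axis, 1 row per class and region, with bars for the 95% counting interval and dashed lines at 1.5-fold in either direction. Points in red are past 1.5-fold upward (6), points in blue past it downward (3), and grey points lie within (68).

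Oligodendrocyte precursor-like nuclei, the glia that renew oligodendrocytes, held both ligands and ERBB4. NRG3 had 2182 CPM in SN PD and 1704 CPM in SN CT, 2216 CPM in PUT PD and 1568 CPM in PUT CT, and 2386 CPM in CN PD and 1703 CPM in CN CT. The 3 PD libraries lay above the 3 CT libraries, as they did for 7.79% of all genes measured in the 3 regions. The ratio of PD to CT was 1.28 in SN (1.17 to 1.40), 1.41 in PUT (1.25 to 1.61) and 1.40 in CN (1.27 to 1.54), and none was past 1.5-fold. These classes held 308 nuclei in SN PD and 422 in SN CT, 211 in PUT PD and 184 in PUT CT, and 267 in CN PD and 336 in CN CT.

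The share of precursor-like nuclei with an NRG3 UMI showed the same order. With each nucleus thinned to 1000 UMIs it was 85.8% in SN PD (80.9 to 89.9%) and 77.9% in SN CT (72.6 to 82.6%). It was 87.2% in PUT PD and 75.4% in PUT CT, and 86.3% in CN PD and 76.8% in CN CT. Without thinning the shares were 90.6% and 79.1% in SN PD and SN CT, 92.4% and 81.5% in PUT PD and PUT CT, and 94.0% and 84.2% in CN PD and CN CT, with median depths of 1383 and 1186, 1432 and 1259, and 1567 and 1164 UMIs in the same order. In microglia or macrophage-like nuclei, taken as the background of free RNA, the thinned share was 11.3% in SN PD and 9.73% in SN CT, 12.1% in PUT PD and 9.72% in PUT CT, and 28.9% in CN PD and 12.9% in CN CT. Their median depths were 912 and 846 UMIs in SN PD and SN CT, 788 and 785 in PUT PD and PUT CT, and 989.5 and 766 in CN PD and CN CT. The precursor-like shares lay far above this background, which was itself higher in CN PD than in CN CT.

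Precursor-like nuclei of PD and CT lay in the same clusters, 1 in SN (96.4% of PD and 97.2% of CT nuclei) and another in PUT (89.1% of PD and 92.9% of CT nuclei) and CN (96.3% of PD and 92.6% of CT nuclei). Within these clusters the NRG3 ratio was 1.29 in SN, 1.44 in PUT and 1.40 in CN. The summed level of 8 neuron markers in the class was 6378 CPM in SN PD and 5560 CPM in SN CT, 7471 CPM in PUT PD and 7683 CPM in PUT CT, and 8750 CPM in CN PD and 8895 CPM in CN CT. It was higher in PD in SN alone.

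NRG1 went the other way in the same nuclei of SN and PUT. Its level was 2982 CPM in SN PD and 3721 CPM in SN CT, a ratio of 0.80 (0.75 to 0.86), and 2468 CPM in PUT PD and 3059 CPM in PUT CT, a ratio of 0.81 (0.73 to 0.89). In CN it was 2793 CPM in PD and 2918 CPM in CT, a ratio of 0.96 (0.88 to 1.04) whose interval holds 1. ERBB4 was higher in PD in each region, with 2944 CPM in SN PD and 2640 CPM in SN CT, 2698 CPM in PUT PD and 2259 CPM in PUT CT, and 3087 CPM in CN PD and 2644 CPM in CN CT. Its ratios of 1.12, 1.19 and 1.17 were within the fold, and its PD and CT libraries did not overlap either.

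ERBB3 was the only member past 1.5-fold in precursor-like nuclei, in SN. It had 62.2 CPM from 28 UMIs in SN PD and 97.8 CPM from 53 UMIs in SN CT, a ratio of 0.64 (0.39 to 1.02) whose interval holds 1. In CN it had 75.7 CPM in PD and 87.1 CPM in CT, a ratio of 0.87 (0.53 to 1.43), and in PUT 82.0 CPM in PD and 85.3 CPM in CT from 25 and 21 UMIs, too few for the comparison. Of all genes measured in SN precursor-like nuclei, 7.07% were past the fold downward.

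**Figure D3:**
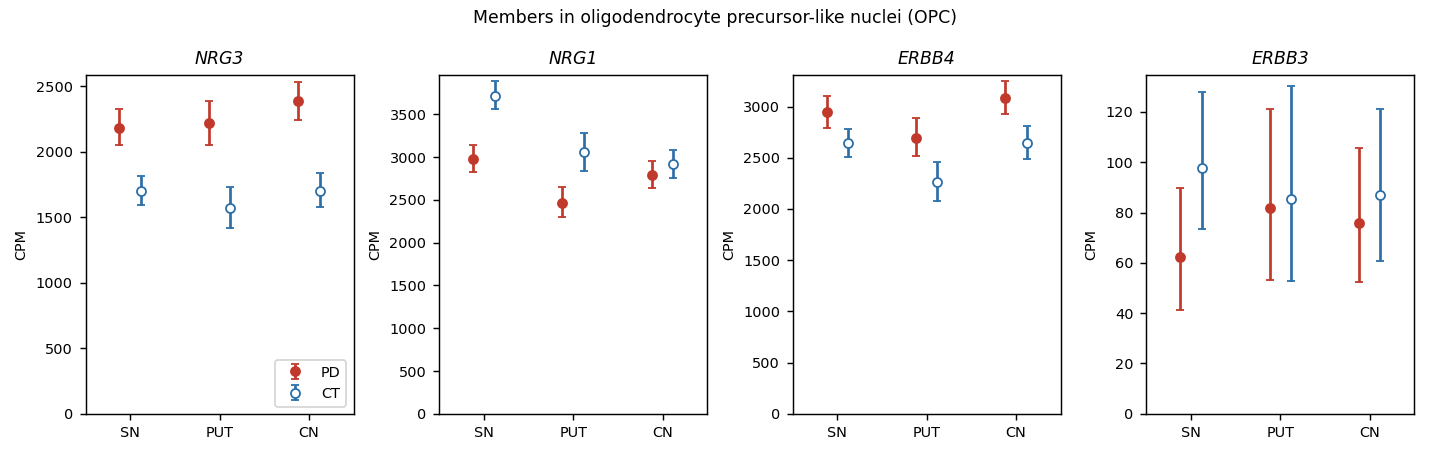
Level in CPM of NRG3, NRG1, ERBB4 and ERBB3 in oligodendrocyte precursor-like nuclei by region, PD filled and CT open, with 95% Poisson intervals. NRG3 is higher in PD than in CT in SN, PUT and CN (ratios 1.28, 1.41 and 1.40), and NRG1 is lower in SN and PUT (0.80 and 0.81).

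The pathway around the members was described with 69 further genes, 67 of them annotated, which cover other ERBB receptors and EGF-type ligands, proteases that release neuregulins, adaptors and effectors, and regulators of receptor turnover. In precursor-like nuclei, 0 of 37 measured genes were past the fold upward and 2 downward in SN, 0 and 2 of 25 in PUT, and 1 and 2 of 33 in CN. Among all genes, 5.37%, 6.94% and 6.23% were past it upward in SN, PUT and CN, and 7.07%, 7.02% and 8.08% downward. The median log2 ratio of the list was -0.01 in SN, where that of all genes was 0.00, -0.02 against 0.02 in PUT and -0.11 against 0.00 in CN. By the bound of the interval nearest to no difference, the genes highest in PD were MAGI2, a synaptic scaffold, in SN (ratio 1.14), PTK2, the focal adhesion kinase, in PUT (1.33) and ABL2, a tyrosine kinase, in CN (1.74). The lowest in PUT was EGFR, the EGF receptor (0.67).

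Oligodendrocyte-like nuclei, the myelinating glia and the main class with ERBB3, numbered 5690 in SN PD and 6643 in SN CT, 2726 in PUT PD and 4032 in PUT CT, and 3317 in CN PD and 1851 in CN CT. ERBB3 had 185 CPM in SN PD and 221 CPM in SN CT, 195 CPM in PUT PD and 218 CPM in PUT CT, and 181 CPM in CN PD and 209 CPM in CN CT. It was lower in PD in each region, and the 3 PD libraries lay below the 3 CT libraries, as they did for 11.8% of all genes measured in the 3 regions. The ratios were 0.84 (0.78 to 0.90) in SN, 0.90 (0.81 to 0.99) in PUT and 0.87 (0.76 to 0.99) in CN, all within the fold, and they stayed below 1 under each of 9 alternatives of processing.

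PD and CT nuclei of the class lay to a large part in different clusters. In SN the cluster led by IGKC held 1899 PD and 160 CT nuclei, that led by OVCH2 and CLMN 146 PD and 2329 CT nuclei, and that led by GSN, ENPP6 and TMEM63A 1138 PD and 1148 CT nuclei. In PUT the cluster led by MLPH and CNDP1 held 1295 PD and 79 CT nuclei, and that led by CMTM8 and DTHD1 held 155 PD and 2165 CT nuclei. In CN the cluster led by KANK1, KCNH8, OPALIN and MUSK held 1403 PD and 230 CT nuclei, and that led by CMTM8 and DTHD1 held 185 PD and 1332 CT nuclei. Each ratio of the class therefore mixes levels with the make-up of clusters. Within shared clusters, which held 88.1% or more of the SN and 95.2% or more of the PUT nuclei of either library and 97.6% of the CN PD and 87.2% of the CN CT nuclei, the ERBB3 ratio was 0.82 in SN, 0.83 in PUT and 0.96 in CN.

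ERBB4 had 1311 CPM in SN PD and 1008 CPM in SN CT, 1984 CPM in PUT PD and 2273 CPM in PUT CT, and 3043 CPM in CN PD and 2771 CPM in CN CT. The SN libraries were lowest and the CN libraries highest. The PD to CT ratios were 1.30 in SN, 0.87 in PUT and 1.10 in CN, and within shared clusters 1.12, 0.85 and 1.09. Clusters of 1 library differed more than this, from 239 to 3133 CPM of ERBB4 in SN PD and from 174 to 3170 CPM in SN CT, and from 2447 to 3188 CPM in CN PD and 2416 to 3039 CPM in CN CT.

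The ligands NRG1 and NRG3 were low in oligodendrocyte-like nuclei and higher in PD. NRG2 was not: its ratio was 0.82 (0.57 to 1.16) in SN and 1.05 (0.61 to 1.80) in PUT, with too few UMIs for the comparison in CN. NRG1 had 111 CPM in SN PD and 67.6 CPM in SN CT, a ratio of 1.64 (1.47 to 1.82), 257 CPM in PUT PD and 213 CPM in PUT CT, a ratio of 1.21 (1.10 to 1.32), and 395 CPM in CN PD and 226 CPM in CN CT, a ratio of 1.75 (1.56 to 1.96). NRG3 had 148 CPM in SN PD and 101 CPM in SN CT, a ratio of 1.46 (1.33 to 1.60), 155 CPM in PUT PD and 116 CPM in PUT CT, a ratio of 1.34 (1.19 to 1.51), and 416 CPM in CN PD and 228 CPM in CN CT, a ratio of 1.83 (1.63 to 2.05). Upward of the fold were NRG1 in SN, where 7.26% of all genes were, and NRG1 and NRG3 in CN, where 5.72% of all genes were. Within shared clusters the NRG1 ratio was 1.62 in SN, 1.17 in PUT and 1.83 in CN, and the NRG3 ratio 1.16, 1.33 and 1.96.

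These levels lie near those of microglia or macrophage-like nuclei, where RNA of the cells and free RNA were not told apart. The level of NRG1 in oligodendrocyte-like nuclei was below that in microglia or macrophage-like nuclei of the same library in 5 of 6 libraries, and that of NRG3 in 6 of 6. Summed neuron markers in oligodendrocyte-like nuclei were 512 CPM in SN PD and 395 CPM in SN CT (8 of 8 markers higher in PD), 514 CPM in PUT PD and 728 CPM in PUT CT (1 of 8), and 875 CPM in CN PD and 805 CPM in CN CT (4 of 8). No neuron marker was at 0 in any of the 6. The part of free or neuronal RNA in these differences was not tested. With nuclei of mixed clusters added, the NRG1 ratio was 1.09 in SN and 1.43 in CN.

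In oligodendrocyte-like nuclei the pathway lists had 2 genes past the fold upward and 3 downward in each region, of 59 measured in SN, 56 in PUT and 51 in CN. Among all genes 7.26%, 5.29% and 5.72% were past it upward and 10.0%, 14.2% and 12.6% downward in SN, PUT and CN. The list medians on the log2 scale were -0.02, -0.03 and -0.05 in SN, PUT and CN, where those of all genes were -0.03, -0.07 and -0.08. ERBB2, the partner receptor of ERBB3 that binds no ligand itself, was highest in PD in SN and PUT. It had 18.2 CPM from 130 UMIs in SN PD and 2.41 CPM from 22 UMIs in SN CT, a ratio of 7.54 (4.77 to 12.4), and 21.2 CPM from 77 UMIs in PUT PD and 1.07 CPM from 5 UMIs in PUT CT, a ratio of 19.8 (8.12 to 62.6).

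Nuclei with an ERBB2 UMI numbered 126 in SN PD and 21 in SN CT and 73 in PUT PD and 5 in PUT CT, and no nucleus had more than 2. ERBB2 in CN, given here after its values were seen, had 34 UMIs in PD and 4 in CT, a ratio of 3.56 (1.27 to 13.8) from fewer UMIs than the minimum for the comparison. In CN the gene highest in PD was EGFR, another receptor of the family, with 40.9 CPM in PD and 11.3 CPM in CT, a ratio of 3.63 (2.25 to 6.19). EGFR, looked up after its values were seen, had 23.2 CPM in PUT PD and 6.23 CPM in PUT CT, and 3.92 CPM in SN PD and 4.61 CPM in SN CT. So ERBB2 was higher in PD in SN and PUT, and in CN on too few UMIs for the comparison. EGFR was higher in PD in PUT and CN but not in SN.

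NEDD4, a ubiquitin ligase of the turnover list, was lowest in PD in each region. It had 142 CPM in SN PD and 259 CPM in SN CT, a ratio of 0.55 (0.51 to 0.59), 123 CPM in PUT PD and 216 CPM in PUT CT, a ratio of 0.57 (0.51 to 0.64), and 113 CPM in CN PD and 233 CPM in CN CT, a ratio of 0.49 (0.42 to 0.56). Over 7 alternatives of processing the ERBB2 ratio ran from 6.11 to 12.5 in SN and from 16.4 to 31.5 in PUT. The NEDD4 ratio ran from 0.54 to 0.57 in SN, 0.54 to 0.59 in PUT and 0.40 to 0.60 in CN. Ratios within shared clusters were not computed for these genes. NEDD4 was lower in PD in every shared cluster of PUT but not in every one of SN and CN. Each exception had 43 nuclei or fewer in 1 of its libraries.

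**Figure D4:**
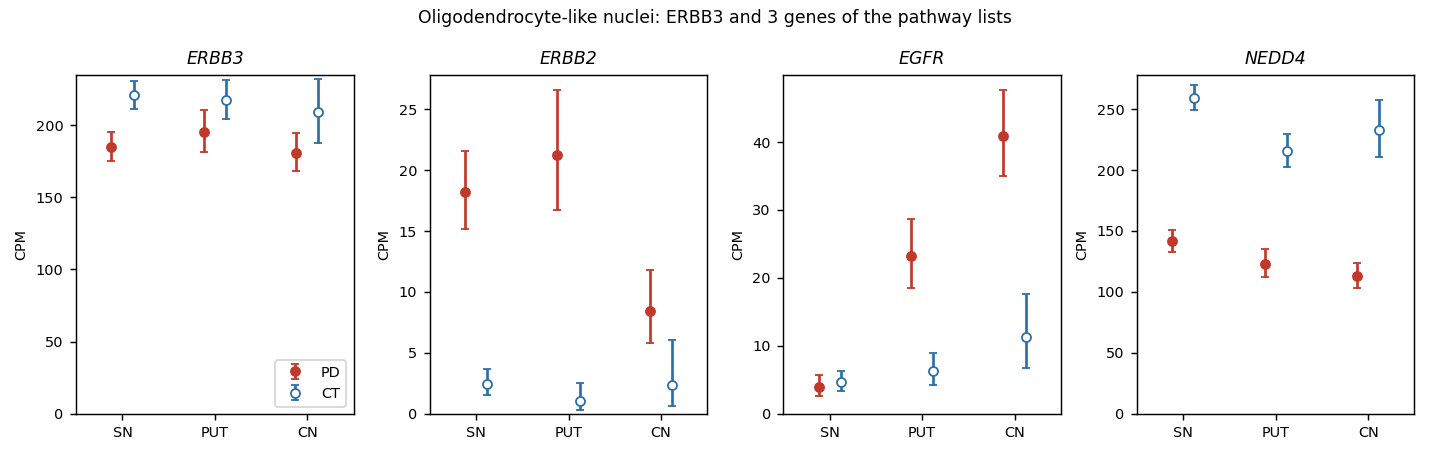
Level in CPM of ERBB3, ERBB2, EGFR and NEDD4 in oligodendrocyte-like nuclei by region, PD filled and CT open, with 95% Poisson intervals. ERBB3 and NEDD4 are lower in PD and ERBB2 higher in PD in SN, PUT and CN, and EGFR is higher in PD in PUT and CN but not in SN. The CN values of ERBB2 rest on 34 UMIs in PD and 4 in CT.

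In microglia or macrophage-like nuclei, the immune cells of the brain, NRG1 had 155 CPM from 90 UMIs in SN PD and 101 CPM from 76 UMIs in SN CT, a ratio of 1.53 (1.12 to 2.11). It had 366 CPM in PUT PD and 308 CPM in PUT CT, a ratio of 1.19 (0.90 to 1.57), and 526 CPM from 202 UMIs in CN PD and 220 CPM from 36 UMIs in CN CT, a ratio of 2.40 (1.67 to 3.52). The CN ratio ran from 1.81 with nuclei of at least 200 genes, under 2-fold, to 7.35 with nuclei thinned to 1000 UMIs, where 31 CT nuclei were left and 2 of them had an NRG1 UMI. SN and CN were past the fold upward, as were 14.0% and 13% of all genes in those comparisons. The SN nuclei lay mostly in different clusters: a cluster led by PALD1 and DOCK8 held 26.6% of the PD and 97.3% of the CT nuclei, and most other PD nuclei lay in one led by F13A1. Within the cluster led by PALD1 the NRG1 ratio was 1.10. Summed T or NK lymphocyte markers in the class were 94.8 CPM in SN PD and 16.0 CPM in SN CT, and 49.5 CPM in CN PD and 42.7 CPM in CN CT. The part of these cells and of free RNA was not tested. NRG3 had ratios of 1.07 in SN, 1.12 in PUT and 1.40 in CN, and ERBB4 of 1.13, 1.15 and 0.87.

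In dopaminergic neuron-like nuclei, 278 in SN PD and 358 in SN CT, no member was past the fold. NRG1 came nearest, with 1773 CPM in SN PD and 1213 CPM in SN CT, a ratio of 1.46 (1.41 to 1.51). The level of NRG1 differed more between clusters of the class than between libraries. A cluster led by CADPS2, EBF3 and CALCR had 2018 CPM in PD (145 nuclei) and 2328 CPM in CT (46 nuclei). A cluster led by ALDH1A1, a marker of ventral dopamine neurons, had 1418 CPM in PD (21 nuclei) and 1001 CPM in CT (89 nuclei). The cluster led by SCTR had 3290 CPM in PD and 3477 CPM in CT, and that led by KCNJ6 and CADPS2 had 1469 CPM in PD and 1169 CPM in CT. The cluster led by F5, nearly all from PD, had 618 CPM there, and that led by KCNJ6 and RSPO2 had 514 CPM in CT. PD nuclei lay mostly in the cluster led by CADPS2 and CT nuclei were spread over the others, and within shared clusters, which held 82.4% of the PD and 70.9% of the CT nuclei, the ratio was 1.02.

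The other members differed less in these neurons. NRG3 had 2664 CPM in SN PD and 2397 CPM in SN CT, a ratio of 1.11 (1.08 to 1.14). ERBB4 had 3822 CPM in SN PD and 3524 CPM in SN CT, a ratio of 1.08 (1.06 to 1.11). NRG2 had 34.2 CPM in SN PD and 38.0 CPM in SN CT, and ERBB3 6.23 CPM in SN PD and 8.34 CPM in SN CT.

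Other neuron-like nuclei of SN, 350 in PD and 321 in CT, had 1126 CPM of ERBB4 in SN PD and 521 CPM in SN CT, a ratio of 2.16 (2.02 to 2.31). In this comparison 4.75% of all genes were past the fold upward. The value rests on single clusters. A cluster led by EBF2, EBF3 and SLC17A8, a vesicular glutamate transporter, had 28 PD and 2 CT nuclei and 7133 CPM of ERBB4 in PD. A cluster with SLC17A6, the glutamate transporter of many subcortical neurons, among its leading genes had 1918 CPM in PD (106 nuclei) and 1640 CPM in CT (74 nuclei), and the other clusters with 20 nuclei in both libraries 156 to 303 CPM. Without the cluster led by EBF2 the class had 713 CPM in PD and 465 CPM in CT, a ratio of 1.53 (1.42 to 1.65). Without the cluster of SLC17A6 as well, it had 231 CPM in PD and 201 CPM in CT, a ratio of 1.15 (0.998 to 1.32). Within shared clusters the ratio was 1.17. NRG1 had 3285 CPM in SN PD and 2552 CPM in SN CT, a ratio of 1.29 (1.25 to 1.33), and NRG3 5695 CPM in SN PD and 5542 CPM in SN CT, a ratio of 1.03 (1.0 to 1.05).

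**Figure D5:**
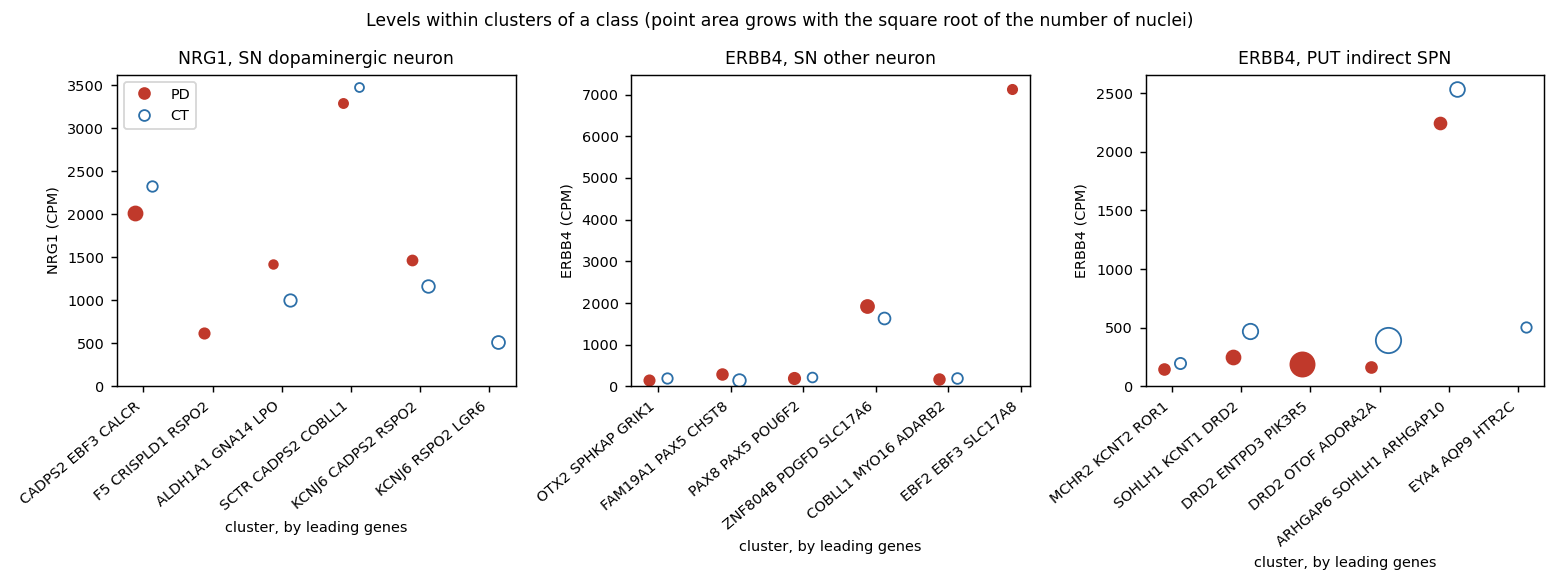
Levels in CPM within the clusters of 3 classes: NRG1 in SN dopaminergic neuron-like, ERBB4 in SN other neuron-like and ERBB4 in PUT indirect spiny projection neuron-like nuclei, PD filled and CT open; point area grows with the square root of the number of nuclei. Differences between clusters exceed those between PD and CT within most clusters, as in the SN cluster led by EBF2 (7133 CPM of ERBB4 in PD) and that led by ZNF804B, PDGFD and SLC17A6 (1918 CPM in PD and 1640 CPM in CT).

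Astrocyte-like nuclei were compared in PUT (113 PD and 153 CT nuclei) and CN (245 PD and 438 CT). ERBB4 had 3061 CPM in PUT PD and 4627 CPM in PUT CT, a ratio of 0.66 (0.59 to 0.74), and 6589 CPM in CN PD and 6326 CPM in CN CT, a ratio of 1.04 (0.99 to 1.09). In PUT 9.26% of all genes were past the fold downward. The PUT difference was present in both clusters, with 2900 CPM in PD and 4619 CPM in CT in the one with FGFR3 among its 10 leading genes (25 PD and 118 CT nuclei), and 3101 CPM in PD and 4668 CPM in CT in the one with GLIS3 (88 PD and 34 CT nuclei). NRG3 had 4047 CPM in PUT PD and 4215 CPM in PUT CT, a ratio of 0.96 (0.87 to 1.06), and 4490 CPM in CN PD and 3763 CPM in CN CT, a ratio of 1.19 (1.12 to 1.27). SN astrocyte-like nuclei (80 PD and 197 CT) were too few to compare, with 3634 CPM of ERBB4 in SN PD and 3040 CPM in SN CT.

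Spiny projection neurons are the output cells of the striatum, and those of the direct pathway carry the D1 and those of the indirect pathway the D2 dopamine receptor. The class level of ERBB4 was higher in direct than in indirect nuclei in each library, but their clusters overlapped. Direct clusters ran from 796 to 3432 CPM and indirect clusters from 134 to 2455 CPM, libraries pooled. In PUT PD an indirect cluster led by ARHGAP6 had 2247 CPM. In CN PD an indirect cluster of 276 nuclei had 801 CPM and a direct cluster of 1523 nuclei 788 CPM. As whole classes, ERBB4 had 1954 CPM in direct and 289 CPM in indirect nuclei of PUT PD, and 2316 CPM in direct and 574 CPM in indirect nuclei of PUT CT. In CN PD it had 1005 CPM in direct and 295 CPM in indirect nuclei, and in CN CT 1198 CPM in direct and 337 CPM in indirect nuclei. The direct over indirect ratio was 6.77 (6.46 to 7.09) in PUT PD, 4.04 in PUT CT, 3.4 in CN PD and 3.56 in CN CT, where 2.14%, 2.08%, 2.18% and 2.39% of all genes were past 1.5-fold upward in the same order. Over the 4 libraries the mean log2 ratio was 2.09 (SD 0.46, n = 4), higher in direct nuclei in 4 of 4. The 2-sided exact sign-flip permutation p was 0.125, the smallest that 4 libraries allow. These libraries differ in region and treatment and are not replicates, so the SD and p here and below do not measure spread between animals.

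NRG3 was also higher in direct than in indirect nuclei in 4 of 4 libraries, with ratios of 1.13 in PUT PD, 1.49 in PUT CT, 1.25 in CN PD and 1.27 in CN CT. Its mean log2 ratio was 0.35 (SD 0.17, n = 4; exact sign-flip permutation p = 0.125). NRG1 had ratios of 1.0 in PUT PD, 1.0 in PUT CT, 0.90 in CN PD and 0.92 in CN CT. NRG2, at 32.6 to 39.7 CPM, had a mean log2 ratio of -0.05 (SD 0.13, n = 4; exact p = 0.875).

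Between the striatal regions, NRG3 was higher in CN and ERBB4 lower in direct nuclei. NRG3 in direct nuclei had 3289 CPM in CN PD and 1194 CPM in PUT PD, a ratio of 2.75 (2.69 to 2.82), and 2736 CPM in CN CT and 1324 CPM in PUT CT, a ratio of 2.07 (2.02 to 2.11). In indirect nuclei it had 2628 CPM in CN PD and 1059 CPM in PUT PD, a ratio of 2.48 (2.42 to 2.54), and 2159 CPM in CN CT and 887 CPM in PUT CT, a ratio of 2.43 (2.37 to 2.49). The 4 ratios are past the fold upward, as were 6.31% (direct, PD), 7.78% (direct, CT), 5.33% (indirect, PD) and 6.86% (indirect, CT) of all genes. They stayed between 2.04 and 2.76 over 7 alternatives of processing. An indirect cluster led by MCHR2 stood apart, with 788 CPM of NRG3 in CN PD, 177 CPM in PUT PD, 595 CPM in CN CT and 105 CPM in PUT CT, beside NRG1 levels of 5938, 4781, 4978 and 5769 CPM in the same order.

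ERBB4 in direct nuclei was lower in CN, with a CN over PUT ratio of 0.51 (0.50 to 0.53) in PD and 0.52 (0.51 to 0.53) in CT. In indirect nuclei the ratio was 1.02 (0.97 to 1.08) in PD and 0.59 (0.56 to 0.61) in CT. Over 7 alternatives of processing it ran from 0.89 to 1.34 in PD and from 0.57 to 0.88 in CT. The PUT CT level was 574 CPM, and 400 CPM without the cluster led by ARHGAP6, beside 337 CPM in CN CT. ERBB3 was past the fold downward in direct nuclei of PD (0.31, from 21 UMIs in CN and 37 in PUT), direct nuclei of CT (0.35, from 17 and 35 UMIs) and indirect nuclei of CT (0.29, from 14 and 50 UMIs), at levels of 5.83 CPM or less. Downward of the fold were 8.74%, 4.51% and 4.59% of all genes in these comparisons. Region and library cannot be told apart, and each treatment gives 1 pair.

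In spiny projection neuron-like nuclei ERBB4 was past the PD to CT fold in PUT indirect nuclei alone, with 289 CPM in PUT PD and 574 CPM in PUT CT, a ratio of 0.50 (0.48 to 0.53). Of all genes, 8.67% were past the fold downward there. The PD and CT nuclei lay mostly in different clusters, both led by DRD2, one with 1278 PD nuclei at 189 CPM and the other with 1544 CT nuclei at 393 CPM. A cluster led by ARHGAP6, high in ERBB4, had 2247 CPM in PD (74 nuclei) and 2539 CPM in CT (177 nuclei), and without it the levels were 196 CPM in PD and 400 CPM in CT, a ratio of 0.49 (0.46 to 0.52). Within shared clusters, which held 19.6% of the PD and 96.6% of the CT nuclei, the ratio was 0.77. This value includes the cluster led by ARHGAP6. Of the other shared clusters, the main CT one had 168 CPM in PD (52 nuclei) and 393 CPM in CT (1544 nuclei). Another had 254 CPM in PD (141 nuclei) and 470 CPM in CT (211 nuclei). The last had 150 CPM in PD (51 nuclei) and 200 CPM in CT (59 nuclei). With nuclei thinned to 1000 UMIs, 18.7% of PUT PD and 32.0% of PUT CT indirect nuclei had an ERBB4 UMI, beside 27.3% and 27.8% of the microglia or macrophage-like nuclei of PUT PD and PUT CT. In CN indirect nuclei ERBB4 had 295 CPM in PD and 337 CPM in CT, a ratio of 0.88 (0.84 to 0.92). It lay on the other side of 1 within shared clusters, at 1.26 over 18.7% of the PD and 14.7% of the CT nuclei, and at 1.01 with mixed clusters added. One of these shared clusters, led by UNC13C and KHDRBS2, had 801 CPM in PD and 630 CPM in CT (276 nuclei each).

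Direct nuclei showed smaller differences. ERBB4 had PD to CT ratios of 0.84 (0.82 to 0.86) in PUT and 0.84 (0.82 to 0.86) in CN. The CN ratio was 1.04, on the other side of 1, within shared clusters, which held 98.0% of the PD and 2.30% of the CT nuclei. NRG1 had 2474 CPM in PUT PD and 2481 CPM in PUT CT, a ratio of 1.0 (0.98 to 1.02), and 3050 CPM in CN PD and 2513 CPM in CN CT, a ratio of 1.21 (1.19 to 1.23). NRG3 had ratios of 0.90 (0.88 to 0.93) in PUT and 1.20 (1.18 to 1.22) in CN; within shared clusters of PUT the ratio of NRG3 was 1.14, on the other side of 1. In indirect nuclei NRG1 had 2466 CPM in PUT PD and 2482 CPM in PUT CT, and 3381 CPM in CN PD and 2726 CPM in CN CT, a ratio of 1.24 (1.22 to 1.26). NRG3 had indirect ratios of 1.19 (1.16 to 1.23) in PUT and 1.22 (1.20 to 1.24) in CN. In CN the log2 ratio of the median gene was -0.14 in direct and -0.15 in indirect nuclei, and relative to it NRG1 was higher by 0.42 and 0.46 and NRG3 by 0.41 and 0.43. CN PD and CN CT nuclei lay mostly in different clusters: direct PD nuclei in those led by MDFIC2 and by UNC13C and LAMA2, direct CT nuclei in those led by AQP9 and by NPFFR2 and PDYN, and most indirect nuclei in one led by AK9 in PD and one led by EYA4 in CT.

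Eccentric spiny projection neuron-like nuclei, with the highest NRG1, had 6345 CPM in PUT PD (112 nuclei) and 8292 CPM in PUT CT (126 nuclei), a ratio of 0.77 (0.73 to 0.80), and 4755 CPM in CN PD (204 nuclei) and 5952 CPM in CN CT (214 nuclei), a ratio of 0.80 (0.77 to 0.83). NRG1 was thus lower in PD in both regions, within the fold, under each of 9 alternatives. ERBB4 had 5969 CPM in PUT PD and 6549 CPM in PUT CT, a ratio of 0.91, and 7840 CPM in CN PD and 8907 CPM in CN CT, a ratio of 0.88. CN nuclei lay mostly in different clusters in PD and in CT, both led by RXFP1. Parvalbumin or PTHLH interneuron-like nuclei of CN (133 PD and 179 CT nuclei), with the highest ERBB4, had 12440 CPM in CN PD and 11953 CPM in CN CT, a ratio of 1.04 (1.01 to 1.07), and NRG3 had 2789 CPM in CN PD and 2914 CPM in CN CT, a ratio of 0.96 (0.89 to 1.02). They shared no cluster of 20 nuclei in both.

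Of the pathway genes, those highest and lowest in PD in the remaining classes were named by the same rule. In dopaminergic neuron-like nuclei they were MAGI2 (ratio 1.17) and PRKCA, a protein kinase C (0.77), and in SN other neuron-like nuclei PRKCA (1.15) and PLCG2, a phospholipase (0.45). In spiny projection neuron-like nuclei the highest were GAB1, an adaptor, in PUT direct (1.77) and indirect (1.56) nuclei, SHC3, a neuronal adaptor, in CN direct (1.53) and indirect (1.33) nuclei, and MAGI2 in eccentric nuclei of PUT (1.18) and CN (1.21). The lowest were the adaptor CRK in CN direct (0.65), the kinase subunit PIK3R3 in CN indirect (0.67) and PRKCA in PUT eccentric nuclei (0.68). In microglia or macrophage-like nuclei they were CBLB, a ubiquitin ligase (2.15), and MAP2K1 (0.49) in SN, the adaptor NCK2 (1.80) and MAP2K1 (0.61) in PUT, and NCK2 (2.20) and CRK (0.43) in CN. In astrocyte-like nuclei they were PRKCA (1.24) and YAP1, a transcription coactivator (0.47), in PUT and PRKCA (1.35) and CRK (0.44) in CN, and in CN parvalbumin or PTHLH interneuron-like nuclei PTK2 (1.42) and PLCG1 (0.43).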

How the data were processed

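Nuclei were run on 10x Chromium 3′ v3 chemistry, per the labels' protocols. The deposited files hold UMI counts per gene and barcode with no normalization, which the authors produced with Cell Ranger 7.0.1 per the submitters' processing notes. These notes name hg38, whereas the gene identifiers are those of Macaca fascicularis, and the extract protocol names Macaca mulatta. The region and treatment of a matrix were known from its file's name alone. The AAV's insert and the values of some genes that the naming rule picks are not reported here.

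The filters were at least 500 genes per nucleus, mitochondrial UMIs of at most 5% and, for doublets, a score from Scrublet (rate set to 0.06) no higher than 0.25; 1.66% to 5.63% of a library lay above that score. Free RNA was not corrected. Counts were scaled to 10000 per nucleus, and 2000 variable genes without the members, 30 principal components and 15 neighbours gave Leiden clusters (resolution 1.0), clustered again (1000 genes, resolution 0.5) to 116 units, with no batch correction. Units were named from 146 markers, 144 annotated; 3598 nuclei in mixed and 478 in unnamed units were left out of the classes. The naming thresholds were set after the clusters were seen, among them the spiny projection neuron level of 0.3. Members, lists and markers were chosen with earlier results of these data known.

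UMIs were summed per class and library. Levels have exact Poisson, ratios exact conditional binomial and shares exact Clopper-Pearson intervals at 95%. With 1 library a group, no test between PD and CT was made. Named genes are the members, the 5 genes most like each among those reaching 20 CPM in a profile with at least 20 UMIs, and in each compared class the pathway gene highest and lowest in PD by the bound of its interval that lies nearest to a ratio of 1. The alternatives were other nuclei filters, no doublet removal, mixed units added, thinning, other scalings and summaries, clustering each library alone, ratios within shared clusters of at least 20 nuclei (Mantel-Haenszel), other UMI minimums and a 2-fold threshold. Scripts were tested on simulated data. Python 3.11.15, scanpy 1.11.5, numpy 2.4.6, scipy 1.17.1, pandas 2.3.3 and matplotlib 3.10.9 were used.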

Additional observations from a re-analysis of the deposited data

How the results depend on the processing

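No paired analysis was possible because each region and treatment came as 1 matrix with no map from nuclei to the numbered samples, and for the same reason no replicate could be left out. Of 77 measured member values 9 were past 1.5-fold, which is 11.7% where 16.3% of all genes were past it in either direction, and the number was 7 to 12 under 8 of 11 alternatives. It was 2 of 52 with nuclei of at least 1000 genes and 15 of 98 with genes of at least 1 UMI in each library, where fewer and more genes are measured, and 2 of 77 at 2-fold, against 15.4%, 34.2% and 4.63% of all genes at these settings. NRG3 in oligodendrocyte precursor-like nuclei was higher in PD under every alternative run, at 1.19 to 1.29 in SN, 1.37 to 1.53 in PUT and 1.35 to 1.62 in CN; the value of 1.62 came with nuclei of at least 1000 genes, and the cause was not tested. Of 691 recomputed ratios 590 moved by less than their counting interval, 101 moved by more and 0 reversed among those past the fold. Of the 77 ratios, 23 lay on the other side of 1 under at least 1 alternative, and 3 of these had an interval without 1: ERBB4 in CN direct (0.83 to 1.04) and CN indirect (0.87 to 1.26) and NRG3 in PUT direct (0.90 to 1.14) spiny projection neuron-like nuclei. Most values past the fold came within it under some alternative. With mixed units added these were ERBB3 in SN precursor-like (0.84) and ERBB4 in PUT astrocyte-like nuclei (0.74). NRG1 in SN (1.09) and CN (1.43) oligodendrocyte-like nuclei also did so with mixed units added. NRG1 in SN microglia or macrophage-like nuclei came to 1.41 when thinned and 1.10 within shared clusters. ERBB4 came to 0.77 within shared clusters of PUT indirect nuclei. In SN other neuron-like nuclei ERBB4 came to 1.15 without the clusters of EBF2 and SLC17A6. Only NRG1 in CN microglia or macrophage-like and NRG3 in CN oligodendrocyte-like nuclei stayed past the fold. The values without the clusters led by EBF2, SLC17A6 and ARHGAP6 were chosen after seeing the data. Over 8 alternatives, among them the cluster led by ARHGAP6 left out, the ERBB4 direct over indirect ratio in PUT stayed between 5.90 and 9.99 in PD and between 3.33 and 6.13 in CT. Depth limits NRG2 and, outside oligodendrocyte-like nuclei, ERBB3: they were measured in 9 and 8 of 20 comparisons.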
